A study of Homo sapiens with 40 samples.

Results

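Exon inclusion was examined in the ubiquitin ligase and deubiquitinase families, taken as every gene whose symbol starts with RNF, TRIM, FBXO, FBXL, FBXW, UBE2 or USP followed by a digit or letter. The rule found 280 exon events in 127 genes, among 16378 exon events in 6976 gene IDs over 5 deposited exon tables. An exon event is a cassette exon with a given pair of neighbouring exons, so that an exon can appear in more than 1 event, and the 280 events cover 262 exons. RNF symbols gave 72 events in 30 genes, UBE2 symbols 65 events in 27 genes and USP symbols 64 events in 30 genes. TRIM symbols gave 31 events in 18 genes, FBXO 24 in 11, FBXW 13 in 4 and FBXL 11 in 7. The prefix also takes in 10 symbols that are look-alikes, pseudogenes, an antisense gene or a read-through: USPL1, RNFT1, RNFT2, TRIM7-AS2, TRIM39-RPP21, FBXL21P, RNF216P1, UBE2Q2P1, UBE2Q2P2 and USP32P1. They are counted and are called what they are where they appear.

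All groups were HEK293 Flp-in T-REx cells, a human line derived from embryonic kidney in which a gene can be inserted at a set site and switched on, that carried a transgene for an α-amanitin-resistant Rpb1, the large subunit of RNA polymerase II. The transgene bore the R749H, H1106Y or E1126G substitution or was WT. In every group, WT included, doxycycline switched the transgene on for 12 to 16 h and α-amanitin then blocked the cells' own polymerase for 42 h. The R749H and H1106Y polymerases are known to be slow and E1126G to be fast. RNA-seq had 2 libraries each of R749H, E1126G and WT, and RASL-seq, in which pairs of probes are joined on preselected exon junctions and counted, had 3 each of R749H, H1106Y, E1126G and WT. Polyadenylated RNA was used in both assays. The deposited tables hold the authors' comparison of a mutant with WT and no value per library, so no spread between libraries can be given, and sequencing depth is unknown. The labels' protocol calls the RNA-seq samples biological replicates and says nothing of separate cultures for RASL-seq. The sources used here do not say whether the spread between libraries entered the deposited p-values. The tables give ratios of exon forms and no expression levels, so markers of the cell line could not be looked at.

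Ubiquitin is passed along a relay. An activating enzyme (E1) loads it onto a conjugating enzyme (E2, the UBE2 genes), and a ligase (E3) brings the loaded E2 to the substrate. RNF and TRIM proteins are mostly ligases with a RING domain that binds the E2. F-box proteins (FBXL, FBXW and FBXO, sorted by the domain that holds the substrate) are the exchangeable substrate receptors of SCF ligases, which are built on a cullin. Ubiquitin-specific proteases, the USP genes, take ubiquitin off again.

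Inclusion below is the share of the ratio that came from the form with the exon, in percent, computed from the authors' deposited tables. It compares forms within a gene and does not measure how much RNA the gene gave. An event was called when its deposited p-value, adjusted by the Benjamini-Hochberg method over the whole table, was under 0.05. Intervals are 95% intervals of the log2 change of the inclusion ratio (mutant over WT), implied by the authors' deposited log2 change and p-value. The mutants of an assay share their WT libraries, and the WT level of an event is the same number in each table of that assay. No genome of the tables' build was used here, so an exon is placed by its GRCh37 coordinates without saying whether it is coding or untranslated.

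In RNA-seq, 33 of 242 member events (13.6%) were called in R749H cells, against 15.1% of all 14358 events in that table. Of these, 15 rose and 18 fell, with backgrounds of 7.07% of all events higher and 8.04% lower. In E1126G cells 10 of 241 member events (4.15%) were called, against 6.48% of all 14650 events. They were 5 rises and 5 falls, with backgrounds of 2.2% higher and 4.27% lower. The members' share lay under that of all events in both tables.

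RASL-seq called larger shares of a smaller panel. In R749H cells 29 of 50 member events were called (58%), against 44.1% of all 2248 events, with 21 higher and 8 lower where the backgrounds were 24% and 20.1%. The members' median log2 change was 0.60 in that table, against 0.05 over all its events. In H1106Y cells 31 of 47 were called (66.0%), against 61.9% of all 2070 events, with 14 higher and 17 lower where the backgrounds were 23.7% and 38.2%. In E1126G cells 19 of 49 were called (38.8%), against 47.5% of all 2312 events, with 7 higher and 12 lower where the backgrounds were 13.9% and 33.6%. Over all its events, the H1106Y table had a median of -0.33 and the E1126G table one of -0.37, a shift towards exclusion. The members' medians there were -0.32 and -0.08. Subtracting each table's median turned no called member round. A set of 6 FBXW11 events, built from overlapping use of 3 exons, stands behind 4 of the 29 calls in R749H cells, 5 of the 31 in H1106Y cells and 3 of the 19 in E1126G cells.

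**Figure D1:**
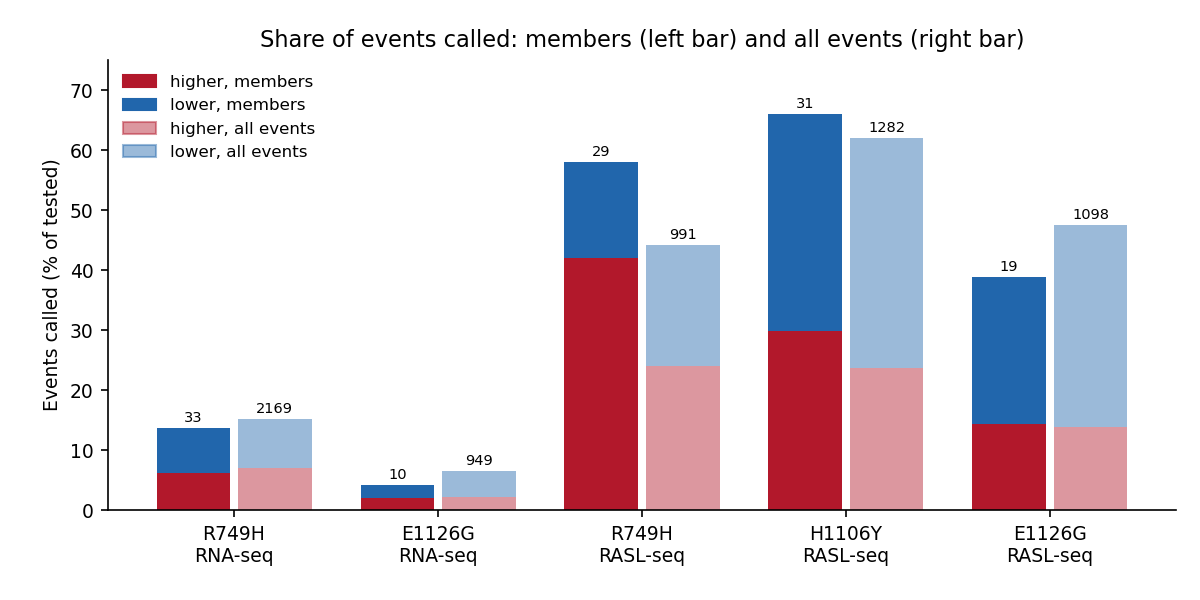
Share of exon events called in each table (percent of events tested, y axis), split into higher (red) and lower (blue) in the mutant than in WT, for the member events (left bar) and all events of the table (right bar); the number on a bar is the count called. The members' bar stands above that of all events in the R749H and H1106Y RASL-seq tables and below it in the other 3.

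In all, 70 of the 280 events, in 54 genes, were called in at least 1 table and 210 in none. Calls in RASL-seq were often small in percentage points: 10 of the 29 in R749H, 10 of the 31 in H1106Y and 8 of the 19 in E1126G cells were under 2 points. In RNA-seq 9 of the 33 R749H calls and 2 of the 10 E1126G calls were at least 30 points. The exons named below are, for each table, the 8 largest called rises and falls, with FBXL13, RNF146 and USPL1, events called in at least 4 tables, the largest change under each prefix and 6 uncalled events with narrow intervals. Other exons are named as well where they were called or differed between mutants, and these were chosen after their values were seen.

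**Figure D2:**
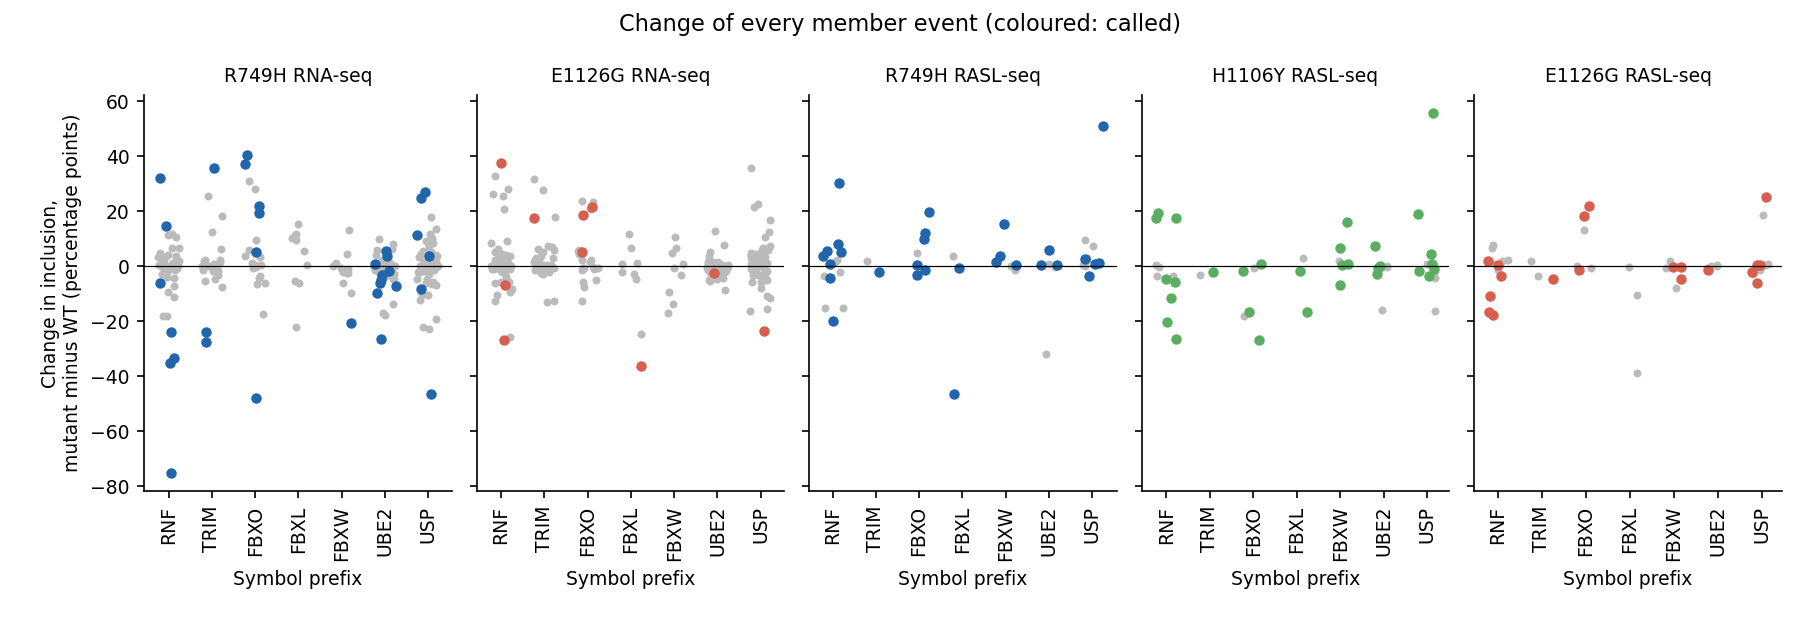
Change in exon inclusion (percentage points, mutant minus WT, y axis) of every member event in each of the 5 tables, by symbol prefix (x axis, points spread sideways for legibility); coloured points were called and grey points were not. The called changes run from -75.3 to 40.4 points in R749H RNA-seq, and of the 10 UBE2 events called there 1 moved by 10 points or more.

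Among the conjugating enzymes, most exons were almost fully included in WT cells, and more of those called in R749H RNA-seq lost inclusion than gained it. R749H RNA-seq called 10 of 59 UBE2 events (16.9%, against 15.1% of all events). They were 3 higher (5.08%, against 7.07%) and 7 lower (11.9%, against 8.04%). E1126G RNA-seq called 1 of 55 (1.82%, against 6.48% of all events), which was lower. RASL-seq called 3 of 7 in R749H cells (all higher), 4 of 7 in H1106Y cells (2 higher, 2 lower) and 1 of 6 in E1126G cells (lower). The RASL-seq shares were 42.9%, 57.1% and 16.7%, against 44.1%, 61.9% and 47.5% of all events.

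The largest called change was in UBE2A, a human counterpart of yeast Rad6 that ubiquitinates histones and the replication clamp. Its 90-nt exon (chromosome X, 118715470 to 118715559, plus strand) was included at 69.2% in R749H cells, 93.7% in E1126G cells and 95.7% in WT cells. R749H cells were the low group and E1126G cells lay within 3 points of WT. The log2 change in the authors' deposited table was -3.31 in R749H cells (interval -4.04 to -2.59, adjusted p = 1.05e-16) and -0.59 in E1126G cells (adjusted p = 0.543), and the 2 mutants differed from each other (difference -2.72, SE 0.56, adjusted p = 0.00055 by an approximate z test).

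UBE2B, the other Rad6 counterpart, had 2 called exons in R749H cells. Its 89-nt exon fell to 93.4% in R749H cells, against 99.4% in WT cells (adjusted p = 1.01e-05), with 97.6% in E1126G cells (adjusted p = 0.162). Its 76-nt exon, in the next intron, rose to 7.66% in R749H cells, against 2.03% in WT cells (adjusted p = 0.00185), with 3.82% in E1126G cells (adjusted p = 0.469). The nearly constant exon was thus skipped more and the rare exon used more in the same cells.

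UBE2V1 is a catalytically silent E2 variant that works as a partner of UBE2N. Its 126-nt exon fell to 94.5% in R749H cells, against 99.5% in WT cells (adjusted p = 2.48e-06). The tables list that exon under a second gene ID too, so its reads cannot be given to UBE2V1 alone. UBE2T, the E2 of the Fanconi anaemia pathway, fell by less: its 70-nt exon was at 97.1% in R749H cells and 98.8% in WT cells (adjusted p = 0.0214).

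UBE2J2, an E2 anchored in the endoplasmic reticulum membrane, lost a rarely used exon. The exon occurs with 2 ends, and in R749H cells the 122-nt form was at 2.05% and the 221-nt form at 1.38%, against 11.8% and 8.66% in WT cells (adjusted p = 0.00488 and 0.0164). E1126G cells had 8.71% and 8.02%, and neither value passed (adjusted p = 0.679 and 0.946). These were 2 of 8 events listed for the gene, and they share the skipping reads, so they are not separate evidence. Among the broadly acting UBE2D enzymes, the 92-nt exon of UBE2D3 fell to 1.91% in R749H cells, against 5.22% in WT cells (adjusted p = 0.0305). The 32-nt exon of UBE2D1 rose to 99.7% in R749H cells, against 96.0% in WT cells (adjusted p = 0.0171).

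E1126G cells had their own UBE2 call in UBE2K, which builds degradative ubiquitin chains. Its 129-nt exon (chromosome 4, 39779302 to 39779430, plus strand) was at 99.4% in R749H cells, 97.2% in E1126G cells and 99.7% in WT cells. The fall in E1126G cells passed (adjusted p = 0.00945) and the value in R749H cells did not (adjusted p = 0.772). The difference between these mutants in UBE2K did not pass the z test.

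On RASL-seq, UBE2L3, an E2 that serves HECT and RBR ligases, moved both ways at a nearly constant exon. The 96-nt exon was at 99.8% in R749H cells, 98.7% in H1106Y cells, 99.5% in E1126G cells and 99.4% in WT cells, higher in R749H cells (adjusted p = 9e-05) and lower in H1106Y cells (adjusted p = 0.000119). RNA-seq also called it higher in R749H cells, at 99.9% against 99.2% in WT cells (adjusted p = 0.0439). UBE2E1 and UBE2E2 are close relatives with a nearly constant exon each. The 51-nt exon of UBE2E1 was at 99.6% in R749H cells, 99.3% in H1106Y cells and 98.0% in E1126G cells, against 99.2% in WT cells, a rise in R749H cells (adjusted p = 0.0014) and a fall in E1126G cells (adjusted p = 1.12e-13). The 133-nt exon of UBE2E2 fell to 95.9% in H1106Y cells, against 98.8% in WT cells (adjusted p = 0.00346). UBE2F, an E2 for the ubiquitin-like NEDD8, had a 30-nt exon at 99.8% in H1106Y cells, against 99.6% in WT cells (adjusted p = 0.0243).

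UBE2Q2 was the UBE2 gene with the largest called rise on RASL-seq. Its 105-nt exon (chromosome 15, 76152219 to 76152323, plus strand) was at 11.5% in R749H cells, 12.8% in H1106Y cells and 4.67% in E1126G cells, against 5.43% in WT cells. It rose in R749H cells (adjusted p = 0.0168) and in H1106Y cells (adjusted p = 0.00801) but not in E1126G cells (adjusted p = 0.67). On RNA-seq the same exon stood at 86.9% in R749H cells and 80.6% in WT cells, so the assays disagree on its level. UBE2Q2 has pseudogenes in the tables, UBE2Q2P1 and UBE2Q2P2, and reads could be split among them.

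Several UBE2 exons were not called. The largest UBE2 change of all was in UBE2E3, where a 57-nt exon was at 55.6% in R749H cells and 71.4% in H1106Y cells, against 87.5% in WT cells, with a wide interval in R749H cells (-4.78 to -0.20, adjusted p = 0.0712). UBE2D2 had a 164-nt exon at 17.1% in R749H cells and 16.9% in E1126G cells, against 13.1% in WT cells, with intervals that stayed within -0.35 to 1.24 on the log2 scale.

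The RING-finger ligases held the largest fall of all member exons. R749H RNA-seq called 7 of 58 RNF events (12.1%, against 15.1% of all events), 2 higher and 5 lower. E1126G RNA-seq called 3 of 60 (5%, against 6.48% of all events), 1 higher and 2 lower. RASL-seq called 8 of 14 in R749H cells (6 higher, 2 lower), 8 of 12 in H1106Y cells (3 higher, 5 lower) and 6 of 13 in E1126G cells (2 higher, 4 lower). Its shares were 57.1%, 66.7% and 46.2%, against 44.1%, 61.9% and 47.5% of all events.

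RNF146 is a ligase that recognises poly(ADP-ribose) and directs tankyrase targets such as axin to destruction. Its 128-nt exon (chromosome 6, 127607195 to 127607322, plus strand) was at 12.0% in R749H cells, 74.5% in E1126G cells and 87.3% in WT cells. R749H cells stood far below the other groups. The authors' deposited table gave a log2 change of -5.66 in R749H cells (interval -7.15 to -4.16, adjusted p = 1.74e-11), and E1126G cells did not pass (adjusted p = 0.451). The R749H change differed from that of E1126G by -4.42 (SE 1.09, adjusted p = 0.0069). A second RNF146 exon of 109 nt, which ends 3654 nt upstream, was read by RASL-seq only. It fell to 5.91% in R749H cells and 6.40% in E1126G cells, against 10.1% in WT cells (adjusted p = 0.000311 and 0.000384), and stood at 6.52% in H1106Y cells (adjusted p = 0.117).

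RNF10 and RNF7 had an exon listed with more than 1 neighbour. The 70-nt exon of RNF10 (chromosome 12, 121012271 to 121012340, plus strand) was at 16.5% in R749H cells and 13.5% in E1126G cells, against 40.4% in WT cells, when joined to the far upstream exon (adjusted p = 0.0208 and 0.00642). Joined to the nearer one it was at 3.60% and 2.86%, against 9.83% in WT cells (adjusted p = 0.00985 and 0.00174). Both mutants lay below WT in both settings, which share the exon's downstream junction and the WT libraries and so are not separate evidence. A 101-nt exon of RNF10 was not called, at 92.3% in R749H cells, 92.4% in E1126G cells and 93.5% in WT cells. RNF7 is the RING subunit of a subset of cullin ligases. Its 264-nt exon (chromosome 3, 141461486 to 141461749, plus strand) rose to 72.7% in R749H cells, against 40.8% in WT cells, with the upstream intron taken as 4134 nt (adjusted p = 0.0351), and stood at 68.9% in E1126G cells (adjusted p = 0.13). With an upstream intron of 4127 nt the same exon was at 19.9% in R749H cells, 21.7% in E1126G cells and 17.7% in WT cells and was not called. A 48-nt RNF7 exon on RASL-seq was at 95.2% in R749H cells, 85.8% in H1106Y cells and 92.6% in E1126G cells, against 91.7% in WT cells, higher in R749H cells (adjusted p = 0.00719) and lower in H1106Y cells (adjusted p = 0.00146).

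The largest rise among RNF genes on RASL-seq was in RNF167, a membrane ligase of endosomes and lysosomes. Its 507-nt exon (chromosome 17, 4843782 to 4844288, plus strand) was at 97% in R749H cells, 63.2% in H1106Y cells and 73.2% in E1126G cells, against 66.7% in WT cells. R749H cells alone stood apart. The log2 change in the authors' deposited table was 4.01 in R749H cells (interval 2.87 to 5.14, adjusted p = 6.64e-11), and it differed from that of H1106Y by 4.23 (SE 0.68, adjusted p = 7.73e-09) and from that of E1126G by 3.56 (SE 0.68, adjusted p = 2.08e-06). The flanking introns of this exon are short, 126 nt upstream and 83 nt downstream.

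RNF121, a membrane ligase of the secretory pathway, had 2 exons on RASL-seq with unlike patterns. The 138-nt exon was at 12.0% in R749H cells, 25.9% in H1106Y cells and 8.95% in E1126G cells, against 6.66% in WT cells. It rose in R749H cells (adjusted p = 0.00147) and in H1106Y cells (adjusted p = 2.16e-14), and the H1106Y rise was larger than that of R749H (R749H minus H1106Y -1.36, SE 0.39, adjusted p = 0.00196). The 38-nt exon was at 88.7% in R749H cells, 82.8% in H1106Y cells and 72.3% in E1126G cells, against 83.2% in WT cells, a rise in R749H cells (adjusted p = 0.00861) and a fall in E1126G cells (adjusted p = 2.66e-08).

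RNF14 is an RBR ligase first known as an androgen receptor partner. On RASL-seq its 152-nt exon was at 84.9% in R749H cells, 94.4% in H1106Y cells and 75.6% in E1126G cells, against 76.9% in WT cells. R749H and H1106Y passed (adjusted p = 0.0434 and 1.44e-05), and E1126G did not (adjusted p = 0.767). RNF34 changed in the other pair of mutants on RASL-seq. Its 66-nt exon (chromosome 12, 121840545 to 121840610, plus strand) was at 34.1% in R749H cells, 17.5% in H1106Y cells and 20.0% in E1126G cells, against 37.8% in WT cells, and it fell in H1106Y cells (adjusted p = 2.2e-20) and in E1126G cells (adjusted p = 7.92e-35). The R749H value did not pass (adjusted p = 0.391) and differed from both others. On RNA-seq the exon was at 15.5% in R749H cells, 24.0% in E1126G cells and 26.6% in WT cells. Neither mutant was called there (adjusted p = 0.106 and 0.895), and R749H cells had the lowest value.

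RNF8 marks chromatin at DNA double-strand breaks. Its 205-nt exon was at 98.5% in R749H cells, 85.7% in H1106Y cells and 99.0% in E1126G cells, against 97.1% in WT cells on RASL-seq. It fell in H1106Y cells (log2 change -2.50 in the authors' deposited table, adjusted p = 9.72e-12) and rose in E1126G cells (log2 change 1.55, adjusted p = 0.00806). RNF13, a ligase of the endosomal and lysosomal membrane, had a 102-nt exon that fell to 7.54% in H1106Y cells, against 12.4% in WT cells (adjusted p = 1.16e-05). RNF185, a ligase of endoplasmic reticulum quality control, had a 98-nt exon that rose on RNA-seq to 20.3% in R749H cells, against 5.56% in WT cells (adjusted p = 0.0298). RASL-seq read that exon near 0, at 0.844% in R749H cells, 0.528% in H1106Y cells and 0.672% in E1126G cells, against 0.131% in WT cells, with R749H and E1126G called higher (adjusted p = 0.0254 and 0.049).

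RNFT1, a RING protein with transmembrane segments whose symbol falls under the prefix, had a 101-nt exon that fell to 57.9% in R749H cells, against 93.3% in WT cells (adjusted p = 0.000437), with 89.4% in E1126G cells (adjusted p = 0.767). RNF216P1 is a pseudogene of RNF216, and reads of the 2 could be exchanged. Its 108-nt exon fell on both assays in R749H cells, to 32.4% against 65.6% in WT cells on RNA-seq (adjusted p = 0.0445) and to 32.1% against 51.9% in WT cells on RASL-seq (adjusted p = 3.13e-09). H1106Y cells had 25.3% and E1126G cells 35.3% on RASL-seq, both called lower (adjusted p = 7.16e-10 and 5.38e-12), so that all 3 mutants lay below WT. Its 65-nt exon was at 2.56% in R749H cells and 41.9% in E1126G cells, against 4.26% in WT cells, a rise in E1126G cells (adjusted p = 0.00391).

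R749H RNA-seq called 3 of 25 TRIM events (12%, against 15.1% of all events), 1 higher and 2 lower. E1126G RNA-seq called 1 of 29 (3.45%, against 6.48% of all events), which was higher. RASL-seq called 1 of 2 in R749H cells, 1 of 2 in H1106Y cells and 1 of 3 in E1126G cells, all lower and all the same exon of TRIM41. Of all RASL-seq events, 44.1%, 61.9% and 47.5% were called in these mutants, in that order.

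TRIM26, a ligase of antiviral signalling, lost a 110-nt exon (chromosome 6, 30172433 to 30172542, minus strand) in R749H cells, at 55.0% in R749H cells, 86.3% in E1126G cells and 82.4% in WT cells. R749H cells were called (log2 change -1.94 in the authors' deposited table, interval -2.90 to -0.98, adjusted p = 0.00118) and E1126G cells were not (adjusted p = 0.768). TRIM65, a ligase of the RNA sensor MDA5, fell to 60.6% at a 66-nt exon in R749H cells, against 84.5% in WT cells (adjusted p = 0.00261), with 71.5% in E1126G cells (adjusted p = 0.277). TRIM14, which lacks a RING domain, gained a 166-nt exon (chromosome 9, 100872351 to 100872516, minus strand), at 54.3% in R749H cells, 25.0% in E1126G cells and 18.8% in WT cells (adjusted p = 0.0227 and 0.842).

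The TRIM call of E1126G RNA-seq was a 98-nt exon of TRIM16, at 80.8% in R749H cells, 98.0% in E1126G cells and 80.4% in WT cells (adjusted p = 0.99 and 0.0427). TRIM16 has a near copy, TRIM16L, so its reads are uncertain. TRIM41 had a 23-nt exon at 94.4% in R749H cells, 94.3% in H1106Y cells and 91.9% in E1126G cells, against 96.5% in WT cells on RASL-seq (adjusted p = 0.0444, 0.0123 and 1.58e-08). RNA-seq gave 82.3% in R749H cells, 86.9% in E1126G cells and 87.8% in WT cells, with no call. TRIM33, a partner and ligase of the SMAD proteins, had a 51-nt exon that passed nowhere. It was at 86.5% in R749H cells, 81.4% in H1106Y cells and 86.5% in E1126G cells, against 84.5% in WT cells on RASL-seq.

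Among F-box genes, R749H RNA-seq called 6 of 22 FBXO events. They were 5 higher (22.7%, against 7.07% of all events) and 1 lower (4.55%, against 8.04%). E1126G RNA-seq called 3 of 22, all higher (13.6%, against 2.2% of all events). RASL-seq called 6 of 7 FBXO events in R749H cells (4 higher, 2 lower), 4 of 6 in H1106Y cells (1 higher, 3 lower) and 3 of 6 in E1126G cells (2 higher, 1 lower). In R749H RASL-seq the shares were 57.1% higher, against 24% of all events, and 28.6% lower, against 20.1%. Of all events, 61.9% were called in H1106Y RASL-seq and 47.5% in E1126G RASL-seq. Overlapping forms of 1 FBXO38 exon make up 2 of the calls in every table. The FBXO events of a table share few genes, 10 in each RNA-seq table and 5 or 6 in each RASL-seq table.

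FBXO9, a receptor for components of the mTOR kinase pathway, gained a 150-nt exon (chromosome 6, 52959490 to 52959639, plus strand). It was at 42.3% in R749H cells, 9.33% in E1126G cells and 5.04% in WT cells. The log2 change in the authors' deposited table was 3.79 in R749H cells (interval 3.01 to 4.57, adjusted p = 1.2e-18) and 0.96 in E1126G cells (adjusted p = 0.307), and the 2 differed by 2.83 (SE 0.64, adjusted p = 0.00234). FBXO44 gained a 96-nt exon (chromosome 1, 11718590 to 11718685, plus strand), at 86.1% in R749H cells, 68.9% in E1126G cells and 45.7% in WT cells (adjusted p = 3.35e-05 and 0.147).

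FBXO4, a receptor for cyclin D1, ran the other way. Its 236-nt exon (chromosome 5, 41927115 to 41927350, plus strand) was at 48.3% in R749H cells, 88.7% in E1126G cells and 96.1% in WT cells. R749H cells were called lower (log2 change -4.74 in the authors' deposited table, interval -6.27 to -3.20, adjusted p = 9.05e-08), and E1126G cells were not called (adjusted p = 0.276).

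FBXO38, a receptor that also acts with the transcription factor KLF7, had calls in all 5 tables at an exon with 2 alternative ends (chromosome 5, from 147806776 to 147807285 or 147807510, plus strand). On RNA-seq the 735-nt form was at 91.7% in R749H cells and 91.0% in E1126G cells, against 72.3% in WT cells (adjusted p = 0.00114 and 0.0104). On RASL-seq it was at 65.7% in R749H cells, 27% in H1106Y cells and 75.8% in E1126G cells, against 53.7% in WT cells. R749H and E1126G cells were high and H1106Y cells low. The log2 changes in the authors' deposited table were 0.72 in R749H cells (adjusted p = 0.011), -1.65 in H1106Y cells (adjusted p = 2.23e-16) and 1.43 in E1126G cells (adjusted p = 9.18e-16). The 510-nt form had the same pattern, at 62.1%, 35.5% and 70.6% in R749H, H1106Y and E1126G cells, against 52.3% in WT cells, and on RNA-seq at 86.8% in R749H cells and 86.4% in E1126G cells, against 65.0% in WT cells. These forms share a start and the skipping reads, so they are not separate evidence.

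FBXO22, a receptor for histone demethylases, had a 139-nt exon at 99.2% in R749H cells and 99.1% in E1126G cells, against 93.9% in WT cells on RNA-seq (adjusted p = 1.74e-05 and 0.0139). On RASL-seq it was at 89.1% in R749H cells, 51.4% in H1106Y cells and 82.8% in E1126G cells, against 69.5% in WT cells, and R749H alone was called (adjusted p = 0.0237). FBXO25 had a 27-nt exon at 1.60% in R749H cells, 3.00% in H1106Y cells and 3.40% in E1126G cells, against 4.71% in WT cells on RASL-seq, called lower in each mutant (adjusted p = 1.41e-09, 0.00868 and 0.0129). On RNA-seq its values lay on the other side, at 8.60% in R749H cells and 7.05% in E1126G cells, against 4.76% in WT cells, with no call (adjusted p = 0.546 and 0.772). FBXO16 had a 26-nt exon that fell on RASL-seq to 0.881% in R749H cells, against 2.22% in WT cells (adjusted p = 0.0398). On that assay the 196-nt exon of FBXO28 rose to 99.5% in R749H cells and 99.7% in H1106Y cells, against 99.0% in WT cells. Both rises passed (adjusted p = 0.00565 and 1.83e-05).

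The FBXL receptors hold substrates with leucine-rich repeats. R749H RNA-seq called 0 of 10 FBXL events, against 15.1% of all events, and E1126G RNA-seq 1 of 9, which was lower, against 6.48%. RASL-seq called 2 of 3 in R749H cells and 2 of 3 in H1106Y cells, all lower, and 0 of 3 in E1126G cells, where 44.1%, 61.9% and 47.5% of all events were called. FBXL13 had the largest fall on RASL-seq, at a 99-nt exon (chromosome 7, 102524661 to 102524759, minus strand). It was at 23.1% in R749H cells, 72.7% in H1106Y cells and 30.8% in E1126G cells, against 69.7% in WT cells. R749H cells passed (log2 change -2.94 in the authors' deposited table, interval -5.03 to -0.84, adjusted p = 0.0164), E1126G cells missed the threshold with a like value (adjusted p = 0.0553), and the interval of H1106Y cells ran from -2.12 to 2.54.

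FBXL6 was the FBXL call of E1126G RNA-seq. Its 64-nt exon (chromosome 8, 145581099 to 145581162, minus strand) was at 92.0% in R749H cells, 44.4% in E1126G cells and 80.6% in WT cells. E1126G cells were called lower (adjusted p = 0.0106), R749H cells were not called (adjusted p = 0.237), and the 2 mutants differed by 3.85 (SE 1.05, adjusted p = 0.0203). A 46-nt form of the exon stood at 85.7% in R749H cells, 45.5% in E1126G cells and 70.2% in WT cells without a call. On RASL-seq, the 96-nt exon of FBXL20 fell to 99.1% in R749H cells and 98.2% in H1106Y cells, against 99.8% in WT cells. Both falls passed (adjusted p = 0.000866 and 1.8e-10). FBXL4 is linked to mitochondrial upkeep. Its 72-nt exon fell on RASL-seq to 13.5% in H1106Y cells, against 30.3% in WT cells (adjusted p = 0.018). R749H cells had 34.0% and E1126G cells 19.9% there, without a call (adjusted p = 0.712 and 0.074). RNA-seq put it at 66.0% in R749H cells, 85.4% in E1126G cells and 88.2% in WT cells. Neither mutant was called on RNA-seq (adjusted p = 0.0584 and 0.901), and the assays disagree on the WT level.

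FBXW11, also known as β-TrCP2, recognises phosphorylated degrons such as those of β-catenin and IκB, and it was the member with the most calls. It had 9 events on 4 exons, and 6 of these events were called at least once. Measured to its farthest listed upstream partner, the upstream intron of the 63-nt exon is 92052 nt long. That exon (chromosome 5, 171341347 to 171341409, minus strand) was at 16.5% in R749H cells, 5.90% in H1106Y cells and 8.0% in E1126G cells, against 12.8% in WT cells on RASL-seq. It rose in R749H cells (adjusted p = 0.0316) and fell in H1106Y cells (adjusted p = 2.91e-13) and in E1126G cells (adjusted p = 4.24e-14). With the same partner, RNA-seq put it at 58.8% in R749H cells, 65.7% in E1126G cells and 79.4% in WT cells. That was a fall in R749H cells (adjusted p = 0.0341), so the assays gave opposite calls for that mutant. With a nearer partner RNA-seq put it at 87.9% in R749H cells, 94.8% in E1126G cells and 90.1% in WT cells. With the nearest it was at 95.8% in R749H cells and 95.9% in WT cells. No change with the nearer partners was called.

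On RASL-seq the 162-nt exon of FBXW11 (171423894 to 171424055) was read against 3 downstream partners. With the nearest it was at 37.3% in R749H cells, 23.7% in H1106Y cells and 13.9% in E1126G cells, against 21.8% in WT cells, called in R749H cells alone (adjusted p = 0.0311). With the next it was at 3.74%, 8.78% and 1.65% in R749H, H1106Y and E1126G cells, against 2.20% in WT cells, called higher in R749H and H1106Y cells (adjusted p = 0.0276 and 4.08e-07). With the farthest all levels were under 1% on RASL-seq, higher in R749H and H1106Y cells and lower in E1126G cells. RNA-seq put the exon far higher. With the farthest partner it was at 36.5% in R749H cells, 29.2% in E1126G cells and 46.3% in WT cells there. With the next partner the values were 53.8%, 51.2% and 40.8% in that order, and none of these changes was called. With its nearer downstream partner, the 102-nt exon (171384601 to 171384702) rose on RASL-seq to 23.6% in H1106Y cells, against 7.46% in WT cells (adjusted p = 3.91e-12). It was at 6.14% in R749H cells and 9.39% in E1126G cells there. With the farther partner it was at 1.28% in R749H cells, 1.90% in H1106Y cells and 0.893% in E1126G cells, against 1.17% in WT cells. In that setting H1106Y cells were called higher and E1126G cells lower (adjusted p = 0.00605 and 0.0469). Over the prefix, RNA-seq called 1 of 12 FBXW events in R749H cells (lower) and 0 of 9 in E1126G cells, against 15.1% and 6.48% of all events. RASL-seq called 4 of 6 in R749H cells (all higher), 5 of 6 in H1106Y cells (4 higher, 1 lower) and 3 of 6 in E1126G cells (all lower), all in FBXW11. Its shares were 66.7%, 83.3% and 50%, against 44.1%, 61.9% and 47.5% of all events.

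Among the ubiquitin-specific proteases, R749H RNA-seq called 6 of 56 events (10.7%, against 15.1% of all events), 4 higher and 2 lower. E1126G RNA-seq called 1 of 57 (1.75%, against 6.48% of all events), which was lower. RASL-seq called 5 of 11 in R749H cells (4 higher, 1 lower), 7 of 11 in H1106Y cells (4 higher, 3 lower) and 5 of 12 in E1126G cells (3 higher, 2 lower). Its shares were 45.5%, 63.6% and 41.7%, against 44.1%, 61.9% and 47.5% of all events.

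USP8 removes ubiquitin from receptors on endosomes, and 4 of its 5 events were called. The 87-nt exon (chromosome 15, 50776472 to 50776558, plus strand) was at 26.4% in R749H cells, 49.4% in E1126G cells and 72.9% in WT cells. Both mutants lay below WT, with log2 changes in the authors' deposited table of -2.91 in R749H cells (interval -3.75 to -2.06, adjusted p = 1.5e-09) and -1.46 in E1126G cells (interval -2.27 to -0.66, adjusted p = 0.0107). The 163-nt exon of USP8, read by RASL-seq, was at 99.5% in R749H cells, 97.5% in H1106Y cells and 99.7% in E1126G cells, against 99.1% in WT cells, lower in H1106Y cells (adjusted p = 8.33e-06) and higher in E1126G cells (adjusted p = 0.000469). Its 162-nt exon rose to 16.5% in H1106Y cells, against 12.0% in WT cells (adjusted p = 0.00209), and its 59-nt exon rose to 98.6% in R749H cells, against 97.8% in WT cells (adjusted p = 0.0179).

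USP3, a histone deubiquitinase, gained a 116-nt exon (chromosome 15, 63826002 to 63826117, plus strand), at 41.2% in R749H cells, 36.5% in E1126G cells and 14.0% in WT cells. R749H cells passed (adjusted p = 0.0331) and E1126G cells did not (adjusted p = 0.124), with intervals of 0.66 to 3.54 and 0.40 to 3.23 that overlap widely. USP39, a catalytically inactive member that belongs to the spliceosome, lost a minor 86-nt exon, at 5.14% in R749H cells, 10.3% in E1126G cells and 13.5% in WT cells (adjusted p = 0.00759 and 0.662). USP45 had a 154-nt exon that rose to 98.4% in R749H cells, against 87.1% in WT cells (adjusted p = 0.0209), with 97.7% in E1126G cells (adjusted p = 0.0884). USP48 had a 198-nt exon that rose to 99.6% in R749H cells, against 96.0% in WT cells (adjusted p = 0.0167).

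USP53, a member found at tight junctions, separated all 3 mutants on RASL-seq. Its 122-nt exon (chromosome 4, 120156445 to 120156566, plus strand) was at 7.55% in R749H cells, 23.9% in H1106Y cells and 2.58% in E1126G cells, against 4.83% in WT cells. R749H and H1106Y cells were called higher (adjusted p = 0.0326 and 7.52e-31) and E1126G cells lower (adjusted p = 0.00128), and each pair of mutants differed. USP47, which acts on DNA polymerase β, had a 60-nt exon at 11.8% in R749H cells, 11.7% in H1106Y cells and 9.34% in E1126G cells, against 15.5% in WT cells, called lower in each mutant (adjusted p = 0.046, 0.048 and 1.03e-07). USP14 trims chains at the proteasome, and its 105-nt exon was at 98.8% in R749H cells, 97.6% in H1106Y cells and 99.2% in E1126G cells, against 98.7% in WT cells (adjusted p = 0.727, 6.3e-05 and 0.00124). USP37 had a 66-nt exon that rose to 99.7% in R749H cells and 99.3% in H1106Y cells, against 98.6% in WT cells (adjusted p = 7.72e-05 and 0.0236). USP33 had a 179-nt exon that passed nowhere, at 18.8% in R749H cells, 13.5% in H1106Y cells and 13.0% in E1126G cells, against 15.7% in WT cells on RASL-seq.

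USPL1 shares the letters of the USP family, but it is known as a protease for SUMO. Its 167-nt exon (chromosome 13, 31195210 to 31195376, plus strand) had the largest rise on RASL-seq, at 75.4% in R749H cells, 80.4% in H1106Y cells and 49.8% in E1126G cells, against 24.5% in WT cells. All 3 mutants lay above WT, with log2 changes in the authors' deposited table of 3.23 (interval 2.48 to 3.98), 3.66 (interval 2.94 to 4.37) and 1.61 (interval 1.06 to 2.16), in that order of mutants. The adjusted p was 8.47e-16 in R749H cells, 1.32e-22 in H1106Y cells and 5.95e-08 in E1126G cells. The E1126G rise was smaller than that of R749H (R749H minus E1126G 1.62, SE 0.48, adjusted p = 0.00345) and of H1106Y (H1106Y minus E1126G 2.05, SE 0.46, adjusted p = 3.56e-05). On RNA-seq the exon was at 95.7% in R749H cells, 75% in E1126G cells and 70.8% in WT cells (adjusted p = 0.0162 and 0.901).

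The same exon event was in both assays for 37 members in each of R749H and E1126G cells. In R749H cells 8 of the 37 were called by both, and 7 of the 8 had the same direction, against 271 of 276 over all events. The exception was the 63-nt exon of FBXW11. In E1126G cells both assays called 2 of the 37, the FBXO38 forms, with the same direction, against 177 of 178 over all events. Across the 37 events the log2 changes of the assays had a Pearson r of 0.61 in R749H cells and 0.42 in E1126G cells, against 0.64 over 1648 events and 0.59 over 1674. Events of a gene share reads, so these values only describe the scatter. The WT level differed by more than 30 points between the assays in 10 of the 37 events, and levels are therefore compared within an assay only.

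**Figure D3:**
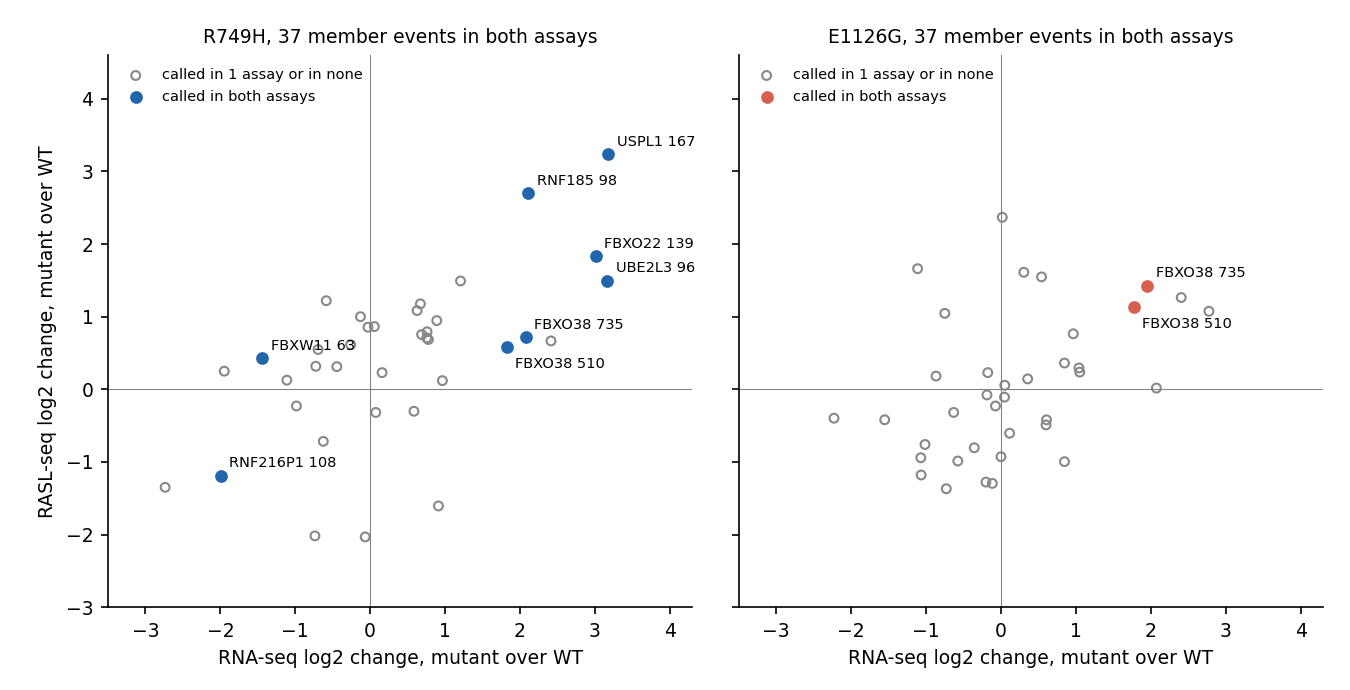
Log2 change of the inclusion ratio (mutant over WT) of the 37 member events listed in both assays, RNA-seq on the x axis and RASL-seq on the y axis, for R749H (left) and E1126G (right); filled points were called in both assays and carry the gene and exon length in nt. In R749H cells 7 of the 8 filled points lie in the quadrants of equal sign and FBXW11 63 lies in that of opposite sign.

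Differences between mutants were tested with an approximate z from the implied errors. Between R749H and E1126G on RNA-seq, 4 of 219 member events differed, against 1.74% of all 13284 events: UBE2A, FBXO9, RNF146 and FBXL6. With part of the variance taken as shared through WT, 17 of the 219 differed, against 7.63% of all events. On RASL-seq, R749H and E1126G differed in 17 of 47 member events, against 33.8% of all 2129. H1106Y and E1126G differed in 27 of 44, against 49.3% of all 1985, and R749H and H1106Y in 20 of 45, against 41.5% of all 1987. The tests share libraries, and these counts were not tested against each other.

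In 13 member events of 10 genes, RASL-seq called a rise in 1 mutant and a fall in another. The mutants share their WT libraries, and these counts are a description. R749H and H1106Y had opposite calls in 5 of 45 events (11.1%, against 3.88% of all 1987 events): both FBXO38 forms, FBXW11 63 nt, UBE2L3 and RNF7. H1106Y and E1126G had them in 8 of 44 (18.2%, against 9.07% of all 1985), the FBXO38 forms, USP53, RNF8, USP8, USP14 and 2 FBXW11 events. R749H and E1126G had them in 5 of 47 (10.6%, against 4.27% of all 2129), UBE2E1, RNF121, USP53 and 2 FBXW11 events. The FBXO38 forms and the FBXW11 events overlap within their genes, so the counts hold fewer separate exons than events. The levels behind these calls lay within 2 points of WT in some genes, such as UBE2E1 and USP14. In H1106Y cells they lay more than 10 points from WT in FBXO38, RNF8 and USP53.

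**Figure D4:**
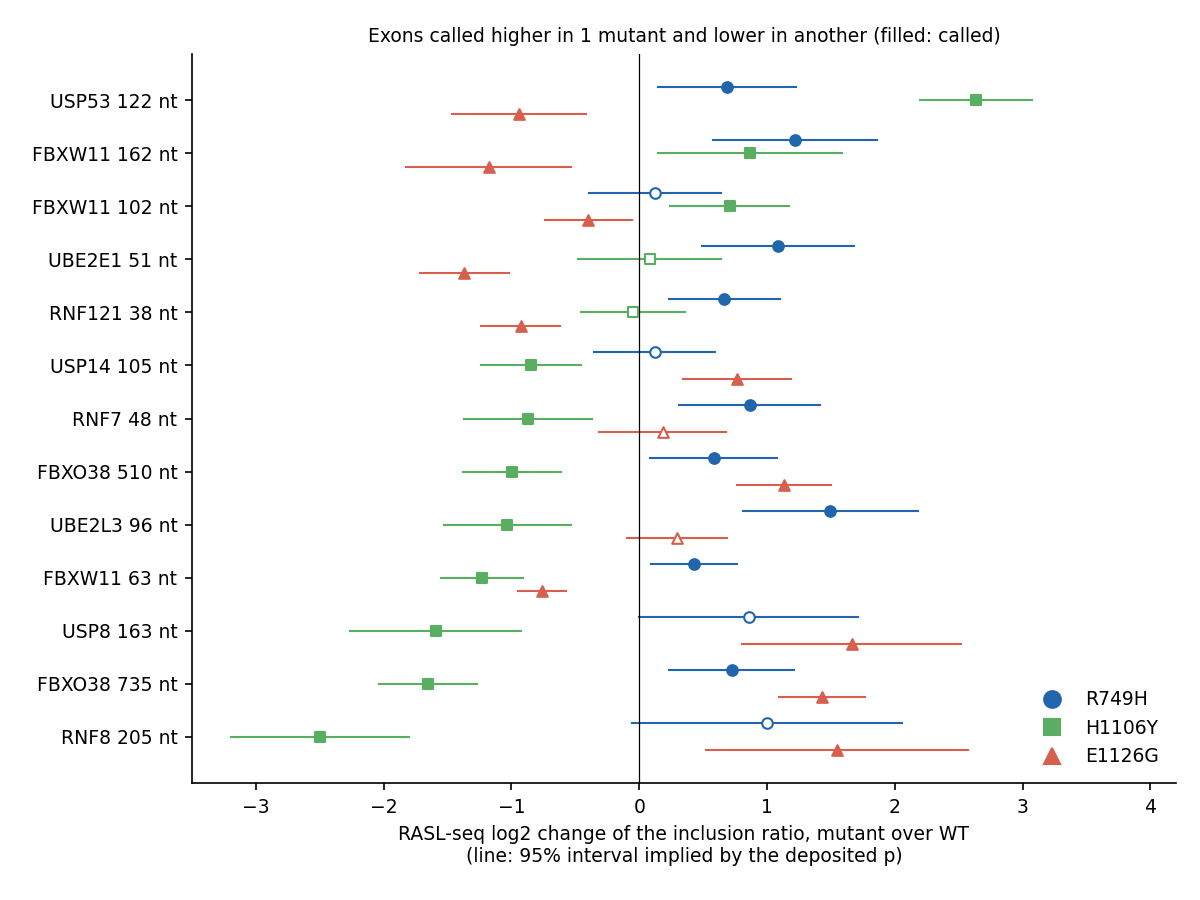
Log2 change of the inclusion ratio on RASL-seq (mutant over WT, x axis) for the 13 member events called higher in 1 mutant and lower in another; symbols mark R749H, H1106Y and E1126G, filled where called, and lines are the 95% intervals implied by the authors' deposited p. USP53 lies right of 0 in R749H and H1106Y and left of it in E1126G, and FBXO38 735 nt lies left of 0 in H1106Y alone.

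Other genes of the ubiquitin system were read from 6 lists. In R749H RNA-seq, where 15.1% of all events were called, calls were made in 12 of 86 events of other E1, E2, HECT and RBR enzymes (7 higher, 5 lower), 13 of 74 of other RING ligases (6 and 7), 27 of 172 of cullin-RING and APC/C parts (11 and 16) and 5 of 50 of other deubiquitinases (1 and 4). Proteasome, p97 and shuttle factors had 9 of 110 (5 and 4), and the SUMO pathway 6 of 33 (3 and 3). The shares of the 6 lists ran from 8.18% to 18.2%. In E1126G RNA-seq, where 6.48% of all events were called, the counts in the same order were 7 of 86 (2 higher, 5 lower), 3 of 79 (1 and 2), 16 of 177 (5 and 11), 2 of 55 (0 and 2), 4 of 108 (0 and 4) and 2 of 32 (0 and 2), with shares from 3.64% to 9.04%. List medians of the log2 change lay between -0.21 and 0.23 in R749H and between -0.32 and 0.08 in E1126G RNA-seq, beside -0.00 and -0.08 over all events.

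On RASL-seq the lists were small, 6 to 25 events each, and are to be read beside the 44.1%, 61.9% and 47.5% of all events called in R749H, H1106Y and E1126G cells. The E1, E2, HECT and RBR list had 5 of 11 called in R749H cells (all higher), 8 of 11 in H1106Y cells (6 higher, 2 lower) and 7 of 13 in E1126G cells (4 higher, 3 lower). Cullin-RING and APC/C parts had 13 of 24 in R749H cells (8 higher, 5 lower), 16 of 23 in H1106Y cells (6 and 10) and 15 of 25 in E1126G cells (4 and 11). Other RING ligases had 10 of 19 in R749H cells (6 and 4), 10 of 18 in H1106Y cells (3 and 7) and 9 of 20 in E1126G cells (1 and 8). Other deubiquitinases had 4 of 6 in R749H cells (3 and 1), 5 of 6 in H1106Y cells (3 and 2) and 5 of 6 in E1126G cells (1 and 4). Proteasome, p97 and shuttle factors had 2 of 7 in R749H cells (1 and 1), 2 of 7 in H1106Y cells (0 and 2) and 4 of 7 in E1126G cells (1 and 3). The SUMO pathway had 2 of 6 in R749H cells (1 and 1), 4 of 6 in H1106Y cells (1 and 3) and 3 of 6 in E1126G cells (0 and 3). List medians of the log2 change ran from -0.01 to 0.97 in R749H cells, -0.92 to 0.97 in H1106Y cells and -1.57 to -0.28 in E1126G cells, beside 0.05, -0.33 and -0.37 over all events.

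A few large changes in these lists touch partners of the members. CUL7, a cullin scaffold, lost a 43-nt exon, at 1.4% in R749H cells and 6.67% in E1126G cells, against 42.5% in WT cells on RNA-seq (adjusted p = 5.89e-10 and 0.000319). COPS7B, a subunit of the COP9 signalosome that removes NEDD8 from cullins, gained a 252-nt exon, at 97% in R749H cells, against 57.2% in WT cells (adjusted p = 2.18e-40). DCUN1D5, a helper of cullin neddylation, lost a 92-nt exon on RASL-seq, at 50.2% in R749H cells, 18.8% in H1106Y cells and 47.9% in E1126G cells, against 75.4% in WT cells (adjusted p = 9.07e-11, 1.75e-67 and 2.28e-22). CDC16, an APC/C subunit, lost a 62-nt exon on RNA-seq. It was at 48.5% in R749H cells and 74.2% in E1126G cells, against 96.4% in WT cells (adjusted p = 2.96e-22 and 4.56e-09). These genes were picked for their values.

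The intron tables of the same RNA-seq libraries gave a further readout that the choice of members did not use. They listed 8 introns within the spans of member events, in TRIM33, TRIM41, TRIM39 and FBXL6. In R749H cells 2 of the 8 were called, against 18.9% of all 2605 introns, and in E1126G cells 0 of 8, against 9.18% of all 2615, with 2 of the 8 at an unadjusted p under 0.05. The 200-nt intron behind the 23-nt exon of TRIM41 was retained at 77.7% in R749H cells, 69.7% in E1126G cells and 54.8% in WT cells (adjusted p = 0.0108 and 0.24). The exon itself was not called in those libraries. The 858-nt intron of TRIM39 was at 2.67% in R749H cells, 6.01% in E1126G cells and 8.18% in WT cells (adjusted p = 0.00143 and 0.482). The 317-nt intron beside the 64-nt exon of FBXL6 was at 82.5% in R749H cells, 93.8% in E1126G cells and 85.7% in WT cells, without a call (adjusted p = 0.731 and 0.164).

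The members resembled the rest of the tables in most features of the exons themselves. Their median exon length was 116 nt, against 108 nt over all events, and 125 of 280 (44.6%) had a length divisible by 3, against 43.8%. Flanking introns were longer, with medians of 3514 nt upstream and 3418 nt downstream, against 1953 and 1895 nt. The RASL-seq panel held a different selection, in which the members of the R749H table had a median upstream intron of 9406 nt, against 3036 nt over all its events, and 64% of them had a length divisible by 3, against 56.1%. Calls in R749H RNA-seq split by exon length: the 15 member exons that rose had a median of 150 nt and the 18 that fell 91 nt, beside 124 nt and 88 nt over all events called higher and lower. The upstream intron had a median of 1511 nt at the rising members and 2774 nt at the falling ones, beside 724 nt and 2484 nt over all called events. WT inclusion of the rising members had a median of 65.0%, and that of the falling ones 80.9%, beside 45.4% and 88.4% over all events called higher and lower, and a level bounds the change that is possible in each direction.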

How the data were processed

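Polyadenylated RNA of HEK293 cells was read by RNA-seq and RASL-seq. The authors deposited 7 tables, 5 of skipped exons and 2 of retained introns, each comparing a mutant with WT. Tables coded by a number in place of the mutant were taken as R749H from the sample descriptions. Per the file headers, a row holds the natural log of the WT inclusion ratio, a log2 fold change of that ratio and a p-value, which the authors deposited unadjusted. The sources used here do not name the test behind it. Per the labels' protocols, paired reads of 100 bp were mapped with TopHat 1.4.1, and the submitters' processing notes add Bowtie 0.12.7, edgeR 3.7.17 and GRCh37. The 16 GRO-seq samples are not analysed here.

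The natural log was checked on the values: with it, 78.9% to 99.2% of the WT ratios per table could be written as a fraction with a denominator of at most 300 (relative tolerance 1e-09). Base 2 gave 0.435% or less. Reading the change as mutant over WT did so for 82.7% to 99.3% of mutant ratios, and the opposite sign for at most 28.6%. WT values were identical between the tables of an assay (13284 of 13284 shared RNA-seq events). Intron values were read as retention: of 45 gaps under 40 nt, 40 lay above 50%.

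Inclusion was computed as 100 times the ratio over 1 plus the ratio, with no correction for the number of junctions or for probe efficiency. Coordinates are printed 1-based. Benjamini-Hochberg adjustment ran over each whole table (threshold 0.05), in Python 3.11.15 with pandas 2.3.3, numpy 2.4.6 and scipy 1.17.1. The implied error is the size of the log2 change over the normal quantile of its p. Differences between mutants used an approximate two-sided z from these errors, adjusted over all events shared by the 2 tables. It treats comparisons that share WT as independent. Symbols were found for 6848 of 6976 gene IDs. Exons of UBE2V1 (126 nt), TRIM39 (83 nt) and UBE2W (103 nt) are also listed under a second gene ID.

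The members, the 6 gene lists and the naming rule were chosen with earlier results of these data known. Named were, per table, the 8 largest called rises and falls in points, the 3 example genes, events called in at least 4 tables, the largest change per prefix and 6 uncalled events with narrow intervals. A few exons that this rule names are not reported here. Alternatives were other thresholds (0.01, 0.1), Benjamini-Yekutieli adjustment, WT inclusion of 5% to 95%, a change of at least 10 points, centring on the table median, strict family symbols, each exon once, and a variance partly shared through WT. Depth per library is unknown.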

Additional observations from a re-analysis of the deposited data

Results flagged for a closer look

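Each result here is a member exon called higher on RASL-seq in 1 mutant and lower in another. The difference of the log2 changes is given as a description: with a call on each side of WT, its test is nearly fixed by the choice, so the difference was not tested independently.

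Between R749H and H1106Y, the log2 change of R749H minus that of H1106Y was 2.37 for the 735-nt exon form of FBXO38 and 1.58 for its 510-nt form. It was 1.66 for FBXW11 63 nt, 2.53 for UBE2L3 96 nt and 1.74 for RNF7 48 nt. All 5 were higher in R749H cells and lower in H1106Y cells than in WT cells.

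Between H1106Y and E1126G, H1106Y minus E1126G was -3.08 for the 735-nt form of FBXO38, -2.13 for the 510-nt form, -4.05 for RNF8 205 nt, -3.25 for USP8 163 nt and -1.61 for USP14 105 nt, all lower in H1106Y cells and higher in E1126G cells than in WT cells. The reverse held for USP53 122 nt at 3.57, FBXW11 162 nt at 2.05 and FBXW11 102 nt at 1.10, the FBXW11 values being those of the longest span.

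Between R749H and E1126G, R749H minus E1126G was 2.45 for UBE2E1 51 nt, 1.19 for FBXW11 63 nt, 1.59 for RNF121 38 nt, 2.40 for FBXW11 162 nt and 1.63 for USP53 122 nt, each higher in R749H cells and lower in E1126G cells than in WT cells.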

How the results depend on the processing

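At an adjusted p of 0.01 the counts were 17 of 33 in R749H RNA-seq, 4 of 10 in E1126G RNA-seq and 14 of 29 in R749H RASL-seq, and the R749H to E1126G differences on RASL-seq were 11 of 17. Benjamini-Yekutieli adjustment gave 15, 2 and 12 for the first 3 of these. A change of at least 10 points left 20 in R749H RNA-seq and 7, 12 and 6 in R749H, H1106Y and E1126G RASL-seq, and WT inclusion of 5% to 95% left 16, 16 and 9 in those RASL-seq tables. Letting the mutants share part of their variance through WT gave 17 members that differ between R749H and E1126G on RNA-seq in place of 4. That setting takes the shared part out of the variance of each difference, so the error of each difference is smaller by construction. Why the other counts moved was not tested. Other alternatives kept the counts within 1.5 times. Of the 188 values of named exons, 35 lost the call at 0.01 and 42 under Benjamini-Yekutieli adjustment, 9 gained a call at 0.1 and 1 of 142 with WT inclusion of 5% to 95%, and centring on the table median, which alone of these settings could turn a direction, turned none. No paired analysis was possible because the tables hold no value per library. Leaving out a library was not possible for the same reason. Errors rest on deposited p-values whose test is unknown.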
